A study of Homo sapiens with 6 samples.

Results

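Cells keep a standing set of proteins that bind, unwind or cut double-stranded RNA (dsRNA), and the data describe the RNA of 9 genes that encode them: DROSHA, DGCR8, DICER1, TARBP2, PRKRA, STAU1, STAU2, DHX9 and ILF2. They were chosen by gene name, 9 of the 60675 gene identifiers in the deposited tables, and each name matched 1 identifier. All 9 passed the filter on low counts, which left 13275 genes. The libraries hold RNA that the J2 antibody, which recognises dsRNA, pulled from lysates of OCI-AML2, an established human acute myeloid leukaemia (AML) line. The cells were transduced with short hairpin RNA constructs against SUPV3L1 (SUV3), a mitochondrial RNA helicase, in 3 libraries, or against PNPT1 (PNPase), a mitochondrial 3′ to 5′ exoribonuclease, in 3 libraries. Cells without a knockdown and input RNA taken before the J2 step were not analysed here, so each comparison is SUPV3L1 knockdown against PNPT1 knockdown. The sources used here do not say whether libraries of a group share a hairpin sequence or a clone. Replicate numbers 1 to 3 were given here only to name the libraries. The labels end each library name in a different number and do not say what it stands for.

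The proteins work at successive steps. In the nucleus DROSHA, an RNase III enzyme, and its partner DGCR8 cut hairpins out of primary microRNA transcripts, and in the cytoplasm DICER1 cuts the released hairpins into microRNAs with the help of TARBP2 and PRKRA. The Staufen proteins STAU1 and STAU2 bind stem structures in mRNAs and act in their transport and decay, DHX9 is a helicase that unwinds RNA duplexes, and ILF2 is a subunit of nuclear dsRNA-binding complexes. The values below measure precipitated RNA of these genes. They measure neither the proteins nor total mRNA, and in such bulk libraries fewer cells with an RNA and less of it per cell cannot be told apart.

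DGCR8 and DICER1 host microRNA hairpins in their own transcripts, shown here because such hairpins are the duplex structures that these proteins act on. The DROSHA-DGCR8 complex is known to cut DGCR8 mRNA itself. Capitals mark the seed, bases 2 to 8, and the sequences are RefSeq's on GRCh38.p14, 5′ to 3′.
hsa-miR-1306-5p: cCACCUCCccugcaaacgucca
hsa-miR-1306-3p: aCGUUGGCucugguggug
hsa-miR-3618: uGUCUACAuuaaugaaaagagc
hsa-miR-3173-5p: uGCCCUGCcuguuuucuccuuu
hsa-miR-3173-3p: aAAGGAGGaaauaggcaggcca
The arms of miR-1306 lie on the plus strand at chr22:20086072-20086093 and chr22:20086112-20086129, inside the coding sequence of DGCR8 in 4 GENCODE 29 transcripts. That of miR-3618 lies at chr22:20085797-20085818 in the 5′ UTR of DGCR8 in 3 transcripts, and those of miR-3173 lie in an intron of DICER1 on the minus strand, at chr14:95137961-95137982 for the 5p arm and chr14:95137923-95137944 for the 3p arm. The 5 seeds all differ. MIR1306 and MIR3618 had 0 counts in each of the 6 libraries, while their deposited FPKM (fragments scaled to gene length and library depth) reached 0.103 and 0.00453. Both hairpins lie wholly within DGCR8 exons, where a read may have been assigned to neither gene, so a count of 0 sets no upper limit on them. MIR3173 had 3, 1 and 3 counts after SUPV3L1 knockdown and 1, 0 and 0 counts after PNPT1 knockdown. How a read over a hairpin inside a DGCR8 exon was shared between the overlapping genes was not tested.

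Counts assigned to genes numbered 9378264 to 11361371 after SUPV3L1 knockdown and 5852090 to 10464630 after PNPT1 knockdown. PNPT1 knockdown replicate 3 stood apart: it had the fewest counts, 16620 genes detected against 20765 to 22393 in the others, and a TMM scaling factor of 0.669 against 0.988 to 1.21, which raises its scaled values. Mitochondrial genes took 33.6% to 42.0% of counts in SUPV3L1 knockdown and 11.3% to 26.6% in PNPT1 knockdown. A set of 42 genes named after sequenced clones took 37.7% of counts in PNPT1 knockdown replicate 3, against 10.9% to 22.1% in the others. Entries assigned to genes were 7.06% of all in that library, against 12.0% to 16.0%. Of the targeted genes, PNPT1 had its 3 lower values in its own knockdown without overlap, and SUPV3L1 was lower on average where it was targeted, with overlap. The cells' identity was checked with 10 AML and myeloid markers, all detected in each library, with summed levels of 1317 to 2445 CPM (counts relative to the library total, with the TMM factor applied unless stated) in SUPV3L1 knockdown and 904 to 1233 CPM after PNPT1 knockdown. LYZ, the lysozyme gene, was at 1493, 344 and 1331 CPM after SUPV3L1 knockdown, against 36.6, 180 and 144 CPM after PNPT1 knockdown (log2 fold change 3.14 ± 0.70 (SE), edgeR adjusted p = 0.898, DESeq2 adjusted p = 0.00134). Without LYZ, left out after its values were seen, the sums overlapped, at 881 to 973 CPM after SUPV3L1 knockdown and 724 to 1196 CPM after PNPT1 knockdown. Of 8 T and B cell markers, CD3G, MS4A1 and CD8A were at 0 counts throughout, and their summed level was 1.04 to 1.52 CPM after SUPV3L1 knockdown and 0.256 to 0.995 CPM after PNPT1 knockdown. All 5 erythroid markers were at 0 counts in each library, and 8 fibroblast and epithelial markers, of which COL1A2, COL3A1, EPCAM, KRT18 and CDH1 were at 0 counts, summed to at most 0.433 CPM after SUPV3L1 knockdown and 1.29 CPM after PNPT1 knockdown. The part of the myeloid level in the results below was not tested.

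The RNA of each of the 9 genes was recovered in all 6 libraries, at levels per length spanning 18.1-fold between the highest and the lowest mean. In the deposited FPKM values, ILF2 was highest, at 23.2 ± 6.22 FPKM after SUPV3L1 knockdown and 26.2 ± 1.49 FPKM after PNPT1 knockdown (SD, n = 3 each). DHX9 came next, at 15.9 ± 7.20 FPKM after SUPV3L1 knockdown and 14.4 ± 3.99 FPKM after PNPT1 knockdown. STAU1, STAU2, DROSHA, DICER1 and PRKRA followed, averaging 8.97, 6.55, 6.07, 3.59 and 3.01 FPKM after SUPV3L1 knockdown and 8.72, 5.85, 4.69, 3.62 and 3.61 FPKM after PNPT1 knockdown, genes in the order named. DGCR8 and TARBP2 were lowest: DGCR8 was at 2.15 ± 1.23 FPKM after SUPV3L1 knockdown and 1.17 ± 1.29 FPKM after PNPT1 knockdown, and TARBP2 at 1.27 ± 0.0430 FPKM after SUPV3L1 knockdown and 1.46 ± 0.363 FPKM after PNPT1 knockdown. The order by group mean was the same in the 2 knockdowns, apart from the exchange of DGCR8 and TARBP2. The ranges over the 6 libraries overlapped for each pair of neighbours in the order. STAU1 nevertheless lay above STAU2 within 6 of 6 libraries, and ILF2 above DHX9 within 5 of 6. The median gene tested had a mean of 2.57 FPKM, so DGCR8 and TARBP2 lay below it and the other 7 genes above.

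**Figure D1:**
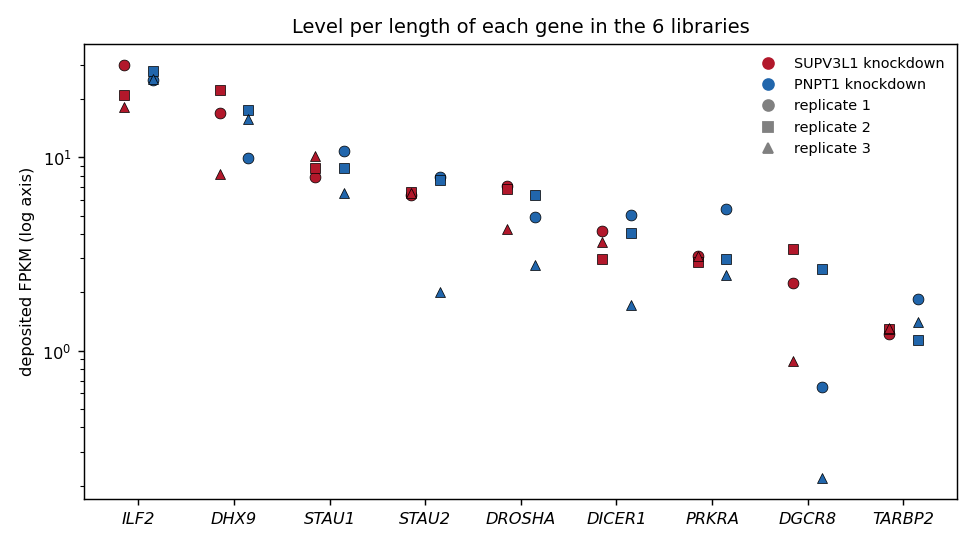
Deposited FPKM of each gene in the 6 libraries (log axis), ordered by the mean over libraries, with SUPV3L1 knockdown in red and PNPT1 knockdown in blue and a symbol for each replicate. ILF2 lies between 18.3 and 30.2 FPKM, while DGCR8 spans 0.218 to 3.34 FPKM.

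None of the 9 genes passed the test of a difference between SUPV3L1 and PNPT1 knockdown, and in 8 of them the pooled SD within groups was larger than the log2 fold change (PRKRA was the exception). In the edgeR quasi-likelihood fit, with Benjamini-Hochberg adjusted p-values across the whole table, 0 of 9 passed, against 0% of the 13275 genes tested. At an unadjusted p under 0.05 there were 0 of 9, against 4.09% of all genes, and the groups did not overlap for 0 of 9, against 8.56% of all genes. DESeq2, run as an alternative, called 0 of 9 and 0.107% of the genes it adjusted (smallest adjusted p among the 9 genes 0.990). The log2 fold changes, SUPV3L1 minus PNPT1 knockdown, had a median of -0.11, with 3 above and 6 below 0. Over all genes tested the median was 0.0094, with 6729 above and 6546 below 0. Without regard to sign, the median change was 0.31 for the 9 genes and 0.35 for all genes tested. These are failures to pass a threshold with 3 libraries a group, and the intervals below give the differences that the data leave possible.

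**Figure D2:**
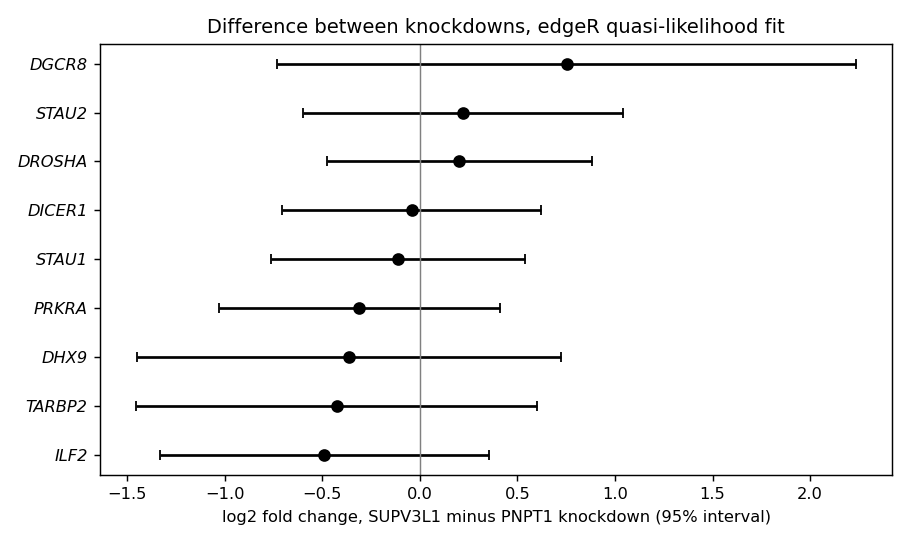
Log2 fold change of each gene, SUPV3L1 minus PNPT1 knockdown, as points with 95% intervals from the edgeR fit. Each interval crosses 0, and the widest is that of DGCR8, from -0.73 to 2.24.

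The nuclear cutting complex came first. DROSHA (ENSG00000113360, minus strand of chromosome 5 from 31400497 to 31532196, on GRCh38 as all gene positions here) was at 70.5, 67.7 and 46.9 CPM in SUPV3L1 knockdown replicates 1, 2 and 3, against 46.1, 64.0 and 50.7 CPM in PNPT1 knockdown replicates 1, 2 and 3. The groups overlapped, with the higher values in SUPV3L1 knockdown replicates 1 and 2 and PNPT1 knockdown replicate 2. Its log2 fold change was 0.20 ± 0.31 (SE), with a 95% interval from -0.48 to 0.88 (edgeR adjusted p = 0.926).

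DGCR8, the dsRNA-binding partner that positions DROSHA on a hairpin, varied most (ENSG00000128191, plus strand of chromosome 22 from 20080232 to 20111877). It was at 19.2, 25.7 and 7.36 CPM after SUPV3L1 knockdown, against 5.47, 21.6 and 3.33 CPM after PNPT1 knockdown. The same 3 libraries as for DROSHA were high, and they belong to different knockdowns. The lowest value rests on 13 counts, and counting error alone gives it an exact Poisson 95% interval of 1.77 to 5.69 CPM. That interval takes in PNPT1 knockdown replicate 1 and none of the other libraries, and the highest library was 7.74-fold above the lowest. The log2 fold change was 0.75 ± 0.67 (SE), with an interval from -0.73 to 2.24 (edgeR adjusted p = 0.898). As a fold that interval runs from 0.603 to 4.71. The value was 1.94 without PNPT1 knockdown replicate 2 and 0.36 without SUPV3L1 knockdown replicate 2 or PNPT1 knockdown replicate 3, and did not pass in any of these. DGCR8 shares 12 exonic bases with TRMT2A and 526 with AC006547.2 on the opposite strand, and without the strand setting of the counting their reads cannot be told apart there. AC006547.2 had 20 counts over the 6 libraries.

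The cytoplasmic enzyme DICER1 (ENSG00000100697, on chromosome 14 at 95086228 to 95158010, minus strand) was among the steadiest. It was at 68.8, 49.3 and 62.2 CPM after SUPV3L1 knockdown, against 73.2, 61.7 and 50.4 CPM after PNPT1 knockdown. The groups covered nearly the same range, and the log2 fold change was -0.041 ± 0.30 (SE). Its 95% interval runs from 0.614-fold to 1.54-fold (edgeR adjusted p = 0.981).

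TARBP2, which holds pre-microRNA hairpins on DICER1 and inhibits the dsRNA-activated kinase PKR, had the lowest mean count, 66.3, with 53 to 79 counts per library (ENSG00000139546, plus strand of chromosome 12 from 53500921 to 53506431). It was at 6.17, 6.41 and 6.93 CPM after SUPV3L1 knockdown, against 7.86, 5.15 and 13.6 CPM after PNPT1 knockdown. The SUPV3L1 knockdown libraries lay close together, inside the wider PNPT1 knockdown range. Its log2 fold change was -0.42 ± 0.46 (SE; interval -1.45 to 0.60, edgeR adjusted p = 0.905), and -0.0093 without PNPT1 knockdown replicate 3.

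PRKRA (PACT), the paralog of TARBP2 that activates PKR, is encoded on chromosome 2 (ENSG00000180228, 178431414 to 178451512, minus strand). It was at 16.6, 15.7 and 18.5 CPM after SUPV3L1 knockdown, against 25.9, 16.2 and 21.0 CPM after PNPT1 knockdown. PNPT1 knockdown replicate 1 was highest, and PNPT1 knockdown replicate 2 lay among the SUPV3L1 knockdown libraries. The log2 fold change was -0.31 ± 0.32 (SE; interval -1.03 to 0.41, edgeR adjusted p = 0.905). PRKRA shares 85 exonic bases with AC009948.1, which had 515 counts over the 6 libraries, and 132 with PJVK, both on the opposite strand. Other members overlap genes too: STAU2 shares 302 exonic bases with AC022826.2 on the same strand, which had 0 counts. On the opposite strand DICER1 shares 80 with DICER1-AS1 (186 counts), ILF2 43 with SNAPIN (304 counts) and TARBP2 16 with AC023509.4 (30 counts).

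**Figure D3:**
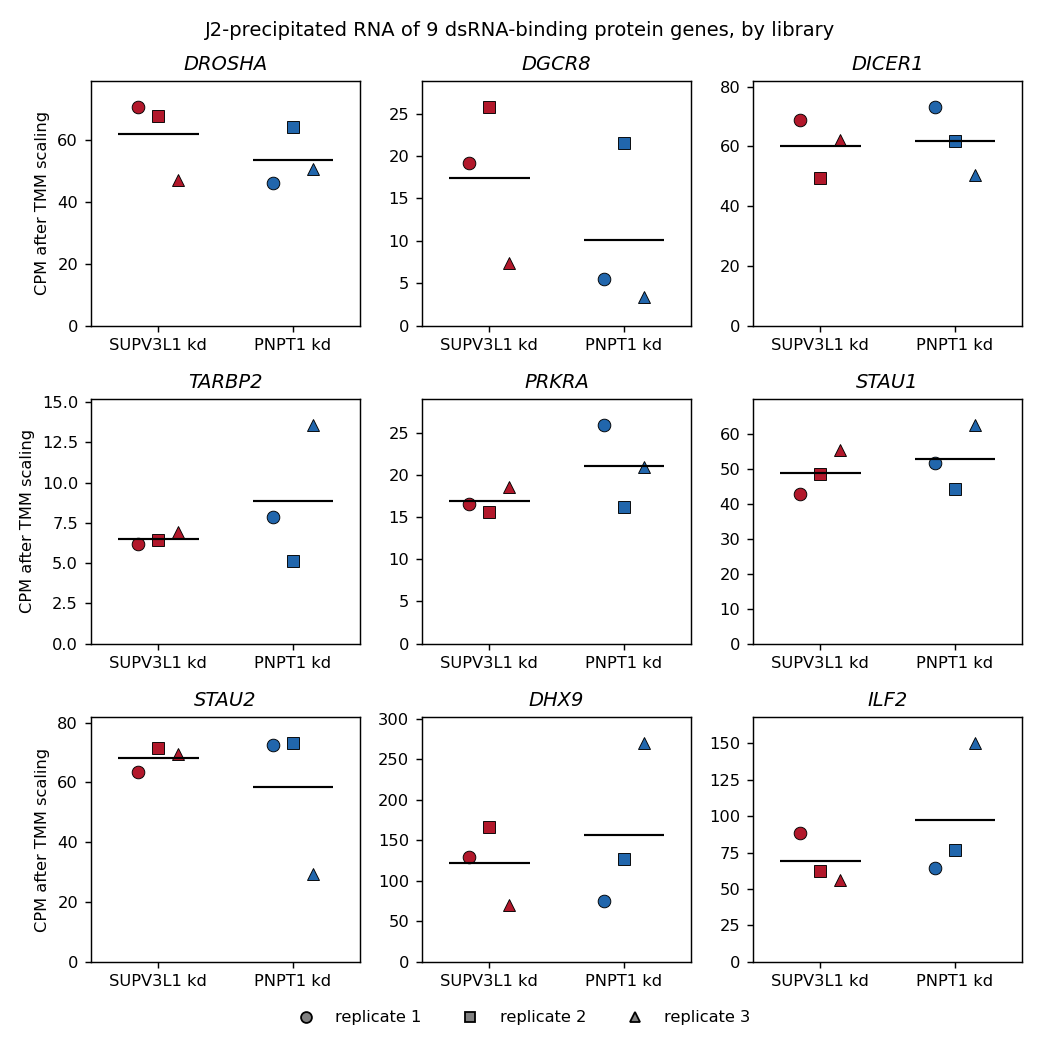
CPM after TMM scaling of each gene in each library, with the group means as lines, SUPV3L1 knockdown on the left and PNPT1 knockdown on the right of each panel, and axes that start at 0. PNPT1 knockdown replicate 3 (blue triangle) is the highest library for ILF2, DHX9, TARBP2 and STAU1 and the lowest for STAU2 and DGCR8.

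The Staufen paralogs stood differently in the library with the fewest counts. STAU1 (ENSG00000124214, minus strand of chromosome 20 from 49113339 to 49188367) was at 42.7, 48.5 and 55.3 CPM after SUPV3L1 knockdown, against 51.8, 44.3 and 62.4 CPM after PNPT1 knockdown. It had the smallest spread of the 9 genes, a pooled within-group SD of 0.22 on the log2 scale, where the median over all genes tested was 0.53. Its log2 fold change was -0.11 ± 0.29 (SE; interval -0.76 to 0.54, edgeR adjusted p = 0.956).

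STAU2 (ENSG00000040341, minus strand of chromosome 8 from 73420369 to 73747708) was at 63.6, 71.5 and 69.5 CPM after SUPV3L1 knockdown, against 72.5, 73.1 and 29.4 CPM after PNPT1 knockdown. Among these values, 5 libraries lay within 63.6 to 73.1 CPM, and PNPT1 knockdown replicate 3 stood below them with 115 counts. The log2 fold change was 0.22 ± 0.37 (SE; interval -0.60 to 1.04, edgeR adjusted p = 0.932), and -0.10 without that library.

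DHX9, also called RNA helicase A, had the highest counts of the 9 genes, with a mean of 1208 per library (ENSG00000135829, plus strand of chromosome 1 from 182839369 to 182887751). It was at 130, 166 and 70.1 CPM after SUPV3L1 knockdown, against 74.6, 127 and 269.7 CPM after PNPT1 knockdown. SUPV3L1 knockdown replicate 3 and PNPT1 knockdown replicate 1 were the lowest of their groups, as they were for DROSHA, and PNPT1 knockdown replicate 3 was the highest of all. The log2 fold change was -0.36 ± 0.49 (SE; interval -1.45 to 0.73, edgeR adjusted p = 0.918), and 0.27 without PNPT1 knockdown replicate 3.

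ILF2 (NF45; ENSG00000143621, minus strand of chromosome 1 from 153661788 to 153671048) was at 88.1, 62.6 and 56.2 CPM after SUPV3L1 knockdown, against 64.5, 76.8 and 150 CPM after PNPT1 knockdown. Apart from PNPT1 knockdown replicate 3, each value lay between 56.2 and 88.1 CPM. Its log2 fold change was -0.49 ± 0.38 (SE; interval -1.33 to 0.35, edgeR adjusted p = 0.898), and -0.040 without that library.

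After TMM scaling, PNPT1 knockdown replicate 3 was the highest library for 4 of the 9 genes and the lowest for 2. On that scale its values divided the genes by merged exon length, which joins all annotated exons of a gene. ILF2, PRKRA, TARBP2, STAU1 and DHX9, with 2281 to 5645 bases, lay 0.17 to 1.10 above their 6-library means on the log2 CPM scale there. DGCR8, DROSHA, STAU2 and DICER1, with 7315 to 12294 bases, deviated by -1.62 to -0.16. By the longest annotated transcript the division did not hold: STAU2 (4061 bases, deviation -1.04) is shorter than DHX9 (4240 bases, deviation 1.10). Over the 10951 protein-coding genes tested, that library's median deviation was 0.26 in the tertile with the shortest exons, -0.063 in the middle tertile and -0.22 in the longest. In the other 5 libraries the same medians lay between -0.13 and 0.11. The division at 0 depends on the TMM factor, which moves all genes of the library together. On CPM without TMM scaling, STAU1 (-0.27) and PRKRA (-0.41) also lay below their means there, and ILF2, TARBP2 and DHX9 stayed above, by 0.32 to 0.53 on the log2 scale. That library was then the highest for 2 of the 9 genes and the lowest for 6. The part of length in the differences between knockdowns was not tested.

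**Figure D4:**
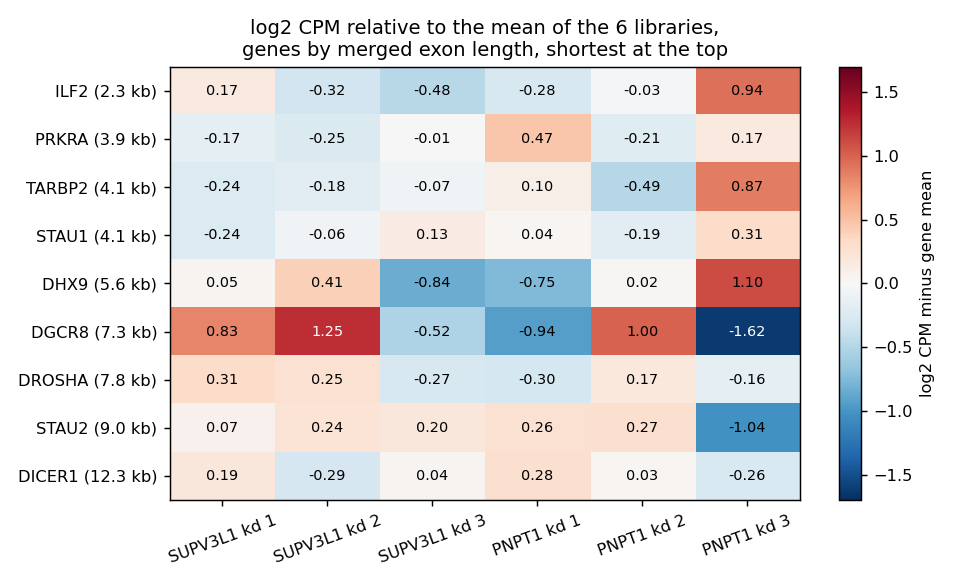
Log2 CPM after TMM scaling of each gene in each library minus the gene's mean over the 6 libraries, with genes ordered by merged exon length from ILF2 at the top to DICER1 at the bottom. In the right column, PNPT1 knockdown replicate 3, the 5 shorter genes are above 0 and the 4 longer genes below 0.

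Ratios of counts between partners within a library depend on no scaling, and 5 were compared on their mean log2 values with exact permutation (two-sided), which cannot give a p below 0.1 with 3 libraries against 3. DROSHA had 3.67, 2.63 and 6.33 counts per DGCR8 count after SUPV3L1 knockdown, against 8.35, 2.96 and 14.7 after PNPT1 knockdown. The ratio was lowest in the 3 libraries where DGCR8 was high. DGCR8 is the divisor and varied more than DROSHA (pooled within-group SD 1.16 against 0.29), so that is no separate result. The ratio of 14.7 rests on 13 DGCR8 counts. The groups overlapped (difference of mean log2 ratios -0.86, exact permutation p = 0.3, Benjamini-Hochberg adjusted p = 1 over 5 ratios). DICER1 had 11.1, 7.64 and 8.91 counts per TARBP2 count after SUPV3L1 knockdown, against 9.25, 11.9 and 3.69 after PNPT1 knockdown. PRKRA to TARBP2 was the steadiest ratio in SUPV3L1 knockdown, at 2.68, 2.43 and 2.66, against 3.28, 3.12 and 1.54 after PNPT1 knockdown.

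STAU1 had 0.672, 0.678 and 0.796 counts per STAU2 count after SUPV3L1 knockdown, against 0.714, 0.606 and 2.12 after PNPT1 knockdown. In this ratio, 5 libraries lay between 0.606 and 0.796, and PNPT1 knockdown replicate 3 alone had more STAU1 than STAU2 counts. The ratio of DHX9 to its helicase relative DHX15 also overlapped between groups. The exact permutation p of these last 4 ratios was 0.8 to 1 (Benjamini-Hochberg adjusted p = 1 for each).

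**Figure D5:**
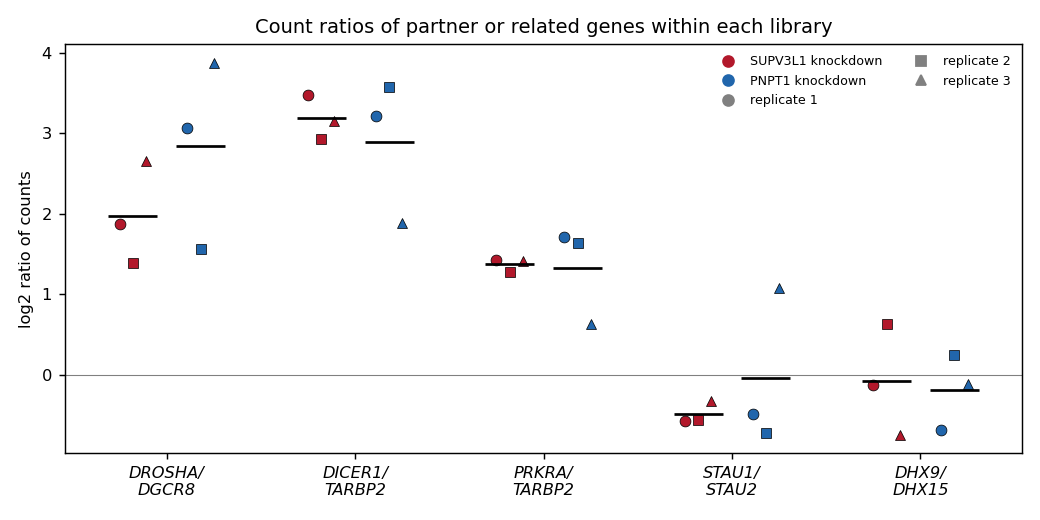
Log2 ratio of counts between 2 genes in each library (0.5 added to each count), with group means as lines, SUPV3L1 knockdown in red to the left of PNPT1 knockdown in blue. The groups overlap for each ratio, and PNPT1 knockdown replicate 3 (blue triangle) is the extreme library for DROSHA to DGCR8, DICER1 to TARBP2, PRKRA to TARBP2 and STAU1 to STAU2.

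Related genes were counted in the same fit. Of 16 other genes listed for a dsRNA-binding domain, 12 were tested and 0 passed, with 5 above and 7 below 0 and a median log2 fold change of -0.12, and the groups did not overlap for 3 of the 12, against 8.56% of all genes. Whether that share differs was not tested. STRBP, which encodes a spermatid RNA-binding protein, had the smallest p of these, at 38.7 ± 3.70 CPM after SUPV3L1 knockdown and 68.6 ± 12.3 CPM after PNPT1 knockdown (SD, n = 3 each; log2 fold change -0.82 ± 0.29 (SE), edgeR adjusted p = 0.898). CTIF is counted in the 12 and in the 3 without overlap, although it is known as a translation factor of the cap-binding complex. It was at 16.2 ± 3.63 CPM after SUPV3L1 knockdown and 25.8 ± 1.60 CPM after PNPT1 knockdown. DUS2, the remaining gene of the 3, went the other way. It was at 15.1 ± 2.74 CPM after SUPV3L1 knockdown and 7.83 ± 4.63 CPM after PNPT1 knockdown (log2 fold change 0.91 ± 0.50 (SE), edgeR adjusted p = 0.898). ADAR, which edits adenosines in dsRNA, and EIF2AK2, which encodes PKR, had log2 fold changes of 0.33 ± 0.30 and 0.68 ± 0.41 (SE), neither past the threshold.

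Of 19 microRNA pathway partners tested, 9 were above and 10 below 0, with a median of -0.0087, and 0 passed. The groups did not overlap for 0 of the 19, against 8.56% of all genes. Those with the smallest p were AGO4, an Argonaute protein that holds microRNAs, at 84.1 ± 3.33 CPM after SUPV3L1 knockdown and 132 ± 52.9 CPM after PNPT1 knockdown, and ZC3H7A, at 34.2 ± 1.09 CPM after SUPV3L1 knockdown and 48.5 ± 15.3 CPM after PNPT1 knockdown. Of 12 factors of Staufen-mediated and nonsense-mediated decay, 3 were above and 9 below 0 (median -0.24), and 0 passed. The groups did not overlap for 1 of the 12, against the same 8.56%. XRN1, the cytoplasmic 5′ to 3′ exonuclease, had a log2 fold change of -0.44 ± 0.31 and PNRC2, a decapping adaptor, -0.53 ± 0.41 (SE).

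Of 15 DEAH-box helicase relatives of DHX9, 9 were above and 6 below 0 (median 0.079), and 0 passed. The groups did not overlap for 2 of the 15, against 8.56% of all genes. DHX16, a splicing helicase, was at 48.8 ± 4.57 CPM after SUPV3L1 knockdown and 32.8 ± 6.95 CPM after PNPT1 knockdown, and DHX33 at 43.8 ± 4.24 CPM after SUPV3L1 knockdown and 23.0 ± 19.1 CPM after PNPT1 knockdown. DHX15 was at 142, 107 and 117 CPM after SUPV3L1 knockdown, against 121, 107 and 292 CPM after PNPT1 knockdown. Its log2 fold change was -0.50 ± 0.41 (SE), and 0.097 without PNPT1 knockdown replicate 3. Of the interferon-inducible dsRNA sensors, 10 of 11 tested were above 0, against 50.7% of all genes, with a median of 0.33, and 0 passed. EIF2AK2, given above, is counted in the 11, and their median equals the value of ADAR. The groups did not overlap for 1 of the 11, against 8.56% of all genes. Whether either share differs was not tested. OAS2 and OAS3, which make an activator of the nuclease RNase L, had the smallest p of that list. Their log2 fold changes were 1.96 ± 0.59 and 2.82 ± 0.87 (SE; edgeR adjusted p = 0.898 for each). OAS2 was at 28.4, 6.98 and 49.8 CPM after SUPV3L1 knockdown, against 6.37, 7.68 and 7.93 CPM after PNPT1 knockdown, with overlap. OAS3 was low, at 17.3, 3.11 and 4.44 CPM after SUPV3L1 knockdown, against 0.299, 2.27 and 0.768 CPM after PNPT1 knockdown. Whether the sensors' median differs from that of the 9 genes was not tested.

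The 9 genes did not share 1 pattern across libraries. Likeness was measured as the root mean square difference of log2 CPM after centring each gene on its 6-library mean, against 9736 other genes with a mean of 50 counts or more. The closest pair of members was STAU1 and PRKRA, at a difference of 0.21, while the member nearest to DGCR8, STAU2, was at 0.86. In direction, DROSHA lay on the same side of its mean as DGCR8 in each of the 6 libraries. STAU2 lay on the other side in SUPV3L1 knockdown replicate 3 and PNPT1 knockdown replicate 1. No member was among the 3 genes nearest to another member. With 9736 genes compared that was likely for any 9 genes, so it does not bear on a shared pattern. The measure is not scaled to a gene's spread, so a gene that varies more tends to have fewer genes near it. STAU1, with the smallest spread of the 9 genes (pooled within-group SD 0.22), had 12.4% of the genes within 0.25. DGCR8, with the largest spread (1.16), had 0.0924%, the fewest, and that share is no separate result about its pattern. The nearest to DGCR8 were FEN1, a flap endonuclease of DNA replication, at a difference of 0.12, then GBGT1 and LAIR1, each at 0.16. FEN1 was at 28.0, 36.1 and 9.31 CPM after SUPV3L1 knockdown, against 6.87, 24.4 and 4.35 CPM after PNPT1 knockdown.

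DHX9, with a pooled within-group SD of 0.80, also had few close genes, 0.565% within 0.25. ARHGDIA and VAT1L were among its 3 nearest (differences of 0.11 and 0.12). ARHGDIA was at 60.8, 85.1 and 38.7 CPM after SUPV3L1 knockdown, against 33.2, 61.1 and 120 CPM after PNPT1 knockdown. DROSHA was nearest to POLR1E, a subunit of RNA polymerase I, at 0.030, and ILF2 to PSME2, ANAPC11 and CIB1 (0.064 to 0.086). STAU2 was nearest to R3HCC1L, ALOX12-AS1 and INVS, each of which had its lowest value in PNPT1 knockdown replicate 3.

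The longest annotated transcripts of the 9 genes held no perfect inverted repeat of 20 bases or more. The longest perfect inverted repeat within the longest annotated transcript (a stretch whose reverse complement occurs elsewhere in the same RNA) was 10 bases in ILF2, 11 in DROSHA, STAU1 and PRKRA, 12 in STAU2 and TARBP2, 13 in DHX9 and 14 in DICER1 and DGCR8. The median over 10951 protein-coding genes tested was 12 bases, and 7.19% of them had 20 bases or more, against 0 of 9. Whether 0 of 9 differs from that share was not tested. Introns were not searched, nor were imperfect stems, such as those of the microRNA hairpins within DGCR8 exons. A perfect match of letters does not show that a duplex forms.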

How the data were processed

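J2-bound RNA of OCI-AML2 cells was sequenced in 6 libraries made, per the labels' protocols, with a directional kit. The deposited files give whole-number read counts per Ensembl gene with 5 summary lines, which stayed out of library sizes and tests. Entries not aligned uniquely were 65.7% to 80.1% of all, and give no counts. The deposited FPKM table was made by the authors on GRCh38. HISAT2 2.2.1, SAMtools 1.14, StringTie 2.1.4 and HTSeq are named in the submitters' processing notes, and the sources used here give neither the strand setting nor the annotation release.

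Counts were tested with edgeR 4.0.16 (R 4.3.3, quasi-likelihood, TMM, expression filter with a minimum count of 10 and total of 15, Benjamini-Hochberg threshold 0.05), with DESeq2 1.42.0 and, on log2 FPKM with a pseudocount, limma 3.58.1 as alternatives. SEs come from the fold change and F statistic. P-values measure the spread between libraries of 1 cell line. Intervals of counts cover counting error only.

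The genes and lists were chosen with earlier results of these data known. Named genes are the 9, both targets, ADAR, EIF2AK2, DHX15, the 2 smallest p per list, and the 3 nearest genes to a member by pattern, of which some are given. DUS2 is given outside this rule, as the remaining gene without overlap in its list. One gene the rule names, with its count ratio, and 1 nearest gene are not reported here. Positions, lengths and transcripts come from GENCODE 29.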

Additional observations from a re-analysis of the deposited data

How the results depend on the processing

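No paired analysis was possible because the labels give the libraries no shared number, and the replicate numbers used here only name them. None of the 9 genes passed under any alternative run. The count over all genes, 0 in the fit reported, was 19 with DESeq2, 187 without the expression filter and 0 to 1 when 1 library was left out (SERPINA1, without SUPV3L1 knockdown replicate 2). Without the filter 3 inducible sensors passed (OAS1, OAS2 and OAS3), and no gene of the other pathway lists.

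The median log2 fold change of the 9 genes, -0.11, was 0.063 and 0.059 on FPKM with pseudocounts of 0.1 and 1, and -0.23 to -0.0093 with 1 library left out. Over all genes tested the median was 0.0094 in the fit reported, and 0.17 and 0.066 on FPKM with pseudocounts of 0.1 and 1. The 9 genes lay below it in each, though with a pseudocount of 1 only slightly (0.059 against 0.066). On FPKM with these pseudocounts the signs of STAU1 (0.062 and 0.054), DHX9 (0.063 and 0.064) and DICER1 (0.10 and 0.059) turned. With 1 library left out, the ranges were -0.23 to 0.016 for STAU1, -0.10 to 0.40 for STAU2, -0.70 to 0.27 for DHX9, -0.17 to 0.095 for DICER1 and -0.76 to 0.097 for DHX15. DROSHA, DGCR8, ILF2, PRKRA and TARBP2 kept their signs under each alternative, with ranges when 1 library was left out of 0.088 to 0.37, 0.36 to 1.94, -0.72 to -0.040, -0.48 to -0.13 and -0.71 to -0.0093, genes in the order named. Those of ADAR and EIF2AK2 were 0.22 to 0.44 and 0.35 to 1.01.

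Of the count ratios, differences ranged with 1 library left out from -1.49 to -0.34 for DROSHA to DGCR8, -0.20 to 0.64 for DICER1 to TARBP2, -0.30 to 0.24 for PRKRA to TARBP2 (-0.0099 on FPKM), -0.79 to 0.12 for STAU1 to STAU2 and -0.25 to 0.44 for DHX9 to DHX15. The cause was not tested. Depth limits TARBP2, with 53 to 79 counts a library, and DGCR8 in PNPT1 knockdown replicate 3, with 13 counts.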
